A study of Rattus norvegicus and Mus musculus with 10 samples.

Results

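The genes described here are 7 C-type lectin receptors of myeloid cells: the Cd209 family members Cd209a, Cd209d and Cd209f, and the Clec genes Clec7a, Clec10a, Clec4a2 and Clec12a. They were taken as a list of symbols, and they make up 7 of the 43538 distinct gene symbols in the rat and mouse matrices. All 7 were found among the 32883 rat genes and 6 among the 31053 mouse genes, where Clec7a was not analysed. The list was drawn up with results of these data known, and Cd209f was on it because its RNA separated rat dura from rat pia. The members were thus chosen by measured levels in these clusters, and that contrast is given as a description.

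The study profiled leukocytes of the borders of the central nervous system (CNS) by droplet single-cell RNA sequencing, with unique molecular identifiers (UMIs) to count transcripts. The rat libraries came from dura, pia, choroid plexus (CP), CNS tissue, cerebrospinal fluid (CSF) and blood of naive Lewis rats, 25 animals in all, with 1 library per compartment. Cells of the dura, pia, CP and CNS had been sorted as positive for CD45 and negative for an intravascular CD45 label, while CSF cells were unsorted and blood cells were isolated on a density gradient. The mouse libraries came from C57BL/6 skull dura, 1 from 4 pooled unimmunized (naive) mice and 1 from 3 pooled mice at the peak of active experimental autoimmune encephalomyelitis (EAE), an immunization model of multiple sclerosis. The titles give naive and EAE, but the condition field reads EAE for both mouse libraries, and the titles were followed. Because each group is 1 pooled library, no significance test was possible, and every interval below is a 95% interval for counting error alone.

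C-type lectin receptors bind sugars on microbes, on host glycoproteins and on dying cells. The Cd209 genes are the rodent relatives of human DC-SIGN, an uptake receptor of dendritic cells and macrophages, and they lie close together in the genome. Clec7a encodes Dectin-1, which recognises fungal beta-glucan and signals through Syk and Card9. Clec10a encodes the galactose-type lectin MGL1, an uptake receptor for terminal galactose and N-acetylgalactosamine. Clec4a2 encodes a DCIR protein and Clec12a encodes MICL, and both carry inhibitory cytoplasmic motifs.

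The sequences below are shown because the gene that followed Cd209f most closely, over rat clusters with at least 50 cells in a library, was a second member of the same family. The rat matrix lists it as LOC100363064, and the NCBI gene number in that name is the one RefSeq calls Cd209fl1. The RefSeq assembly GRCr8 names 13 genes with a Cd209 symbol on chromosome 12. Both promoters, 250 bases before to 50 bases after the start, were taken from RefSeq on GRCr8, which is a different build from the Rnor_6.0 build of the deposited counts. That of Cd209f lies at chr12:7282025-7282324 on the plus strand and that of Cd209fl1 at chr12:7226870-7227169 on the minus strand. Capitals mark runs of 20 or more bases that the pair shares.
Cd209f: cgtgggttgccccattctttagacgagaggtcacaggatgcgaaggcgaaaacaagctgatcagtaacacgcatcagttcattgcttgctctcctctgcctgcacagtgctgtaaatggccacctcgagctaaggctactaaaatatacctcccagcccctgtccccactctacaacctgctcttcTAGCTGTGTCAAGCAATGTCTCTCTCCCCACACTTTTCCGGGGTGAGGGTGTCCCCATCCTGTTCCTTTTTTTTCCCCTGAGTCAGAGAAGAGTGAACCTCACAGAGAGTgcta
Cd209fl1: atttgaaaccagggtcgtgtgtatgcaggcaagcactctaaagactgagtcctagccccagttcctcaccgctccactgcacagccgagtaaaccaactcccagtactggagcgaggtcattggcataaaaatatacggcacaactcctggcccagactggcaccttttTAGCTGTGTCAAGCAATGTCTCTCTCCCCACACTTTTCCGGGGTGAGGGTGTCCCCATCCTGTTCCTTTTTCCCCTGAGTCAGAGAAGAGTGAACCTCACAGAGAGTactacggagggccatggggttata
The shared runs covered 110 of the 300 bases of Cd209f and 107 of the 300 of Cd209fl1, and the longest was 71 bases. They lay around the start of the gene, whereas the upstream part differed. The longest run that the Cd209f promoter shared with any of the 5 other members that have an entry was 15 bases, with Cd209d, and the others were 8 or 9. The AP-1 motif TGACTCA, searched on both strands, occurred once in Cd209f (base 265, other strand) and once in Cd209fl1 (base 245, other strand) and in none of the 5 other members. In both promoters the site lay inside a shared run, so the 2 hits are not independent. In Cd209f it lay past the 250 bases before the start. The motif was present in 1550 of 33469 promoters of the same length (4.63%). The Ets-type motif GAGGAA, present in 9239 of these promoters (27.6%), occurred 2 times in Cd209d, 2 times in Clec12a, once in Cd209fl1 and in none of the others.

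The libraries held between 2272 and 4953 cells with an author cluster in the rat, at medians of 981 to 2704 UMIs per cell, and 2776 naive and 4579 EAE cells in the mouse, at medians of 4163.5 and 11743. Between 8 and 36 cell barcodes were shared by a pair of rat libraries, and 7 by the mouse pair. The authors' cluster names are used throughout. In rat cluster myeloid 2 the 7 markers of border macrophages summed to 9217 UMIs per 1000000 (CPM) in dura, 7037 in pia, 2378 in CP and 352 in CNS, where Cd163 was at 0. The 7 microglia markers were at 308, 269, 958 and 7101 CPM, so they ran the other way for CP and CNS but not between dura and pia. The marker lists of both cell types thus differed between the dural and CNS cells of that cluster. CPM here scale the summed UMIs of a gene to the summed UMIs of all cells of a cluster in a library, so fewer positive cells and less RNA per cell cannot be told apart unless counts per cell are given.

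Rat Cd209f was found almost wholly in dural myeloid 2 cells. It had 451 UMIs there among 1033 cells (179 CPM, 95% interval 163 to 196), against 3 UMIs among 1515 pial cells (1.93 CPM, 0.398 to 5.64) and 0 UMIs among 409 CP and 332 CNS cells. The dural level was 92.8-fold the pial one (interval 31.6 to 452). With the 0 set to a floor of 3 UMIs it was 36.3-fold higher than in CP and 47.1-fold higher than in CNS. The lower interval limits from the counts themselves were 29.4 and 38.2. In the other dural clusters it had 6 UMIs in Bc2, 5 in NK, 4 in myeloid1, 2 each in Bc1 and CD4 Tc, and 1 each in mDC1 and micro. No other annotated cell of any compartment held a Cd209f UMI. Its level in dural T cells, which should lack it, was 1.84 CPM.

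The dural signal came from a minority of cells. Of the 1033 cells, 931 had no Cd209f UMI, 29 had 1, 22 had 2 and 51 had 3 or more, and the highest had 33. The positive share was 9.87% (102 cells, exact interval 8.12 to 11.9) at a median of 2326 UMIs per cell, and 0.284% of dural T cells at a median of 1351. In pial myeloid 2 it was 0.132% (2 cells) at a median of 983. After thinning every cell to 500 UMIs the shares were 4.91% in dura and 0.0507% in pia.

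**Figure D1:**
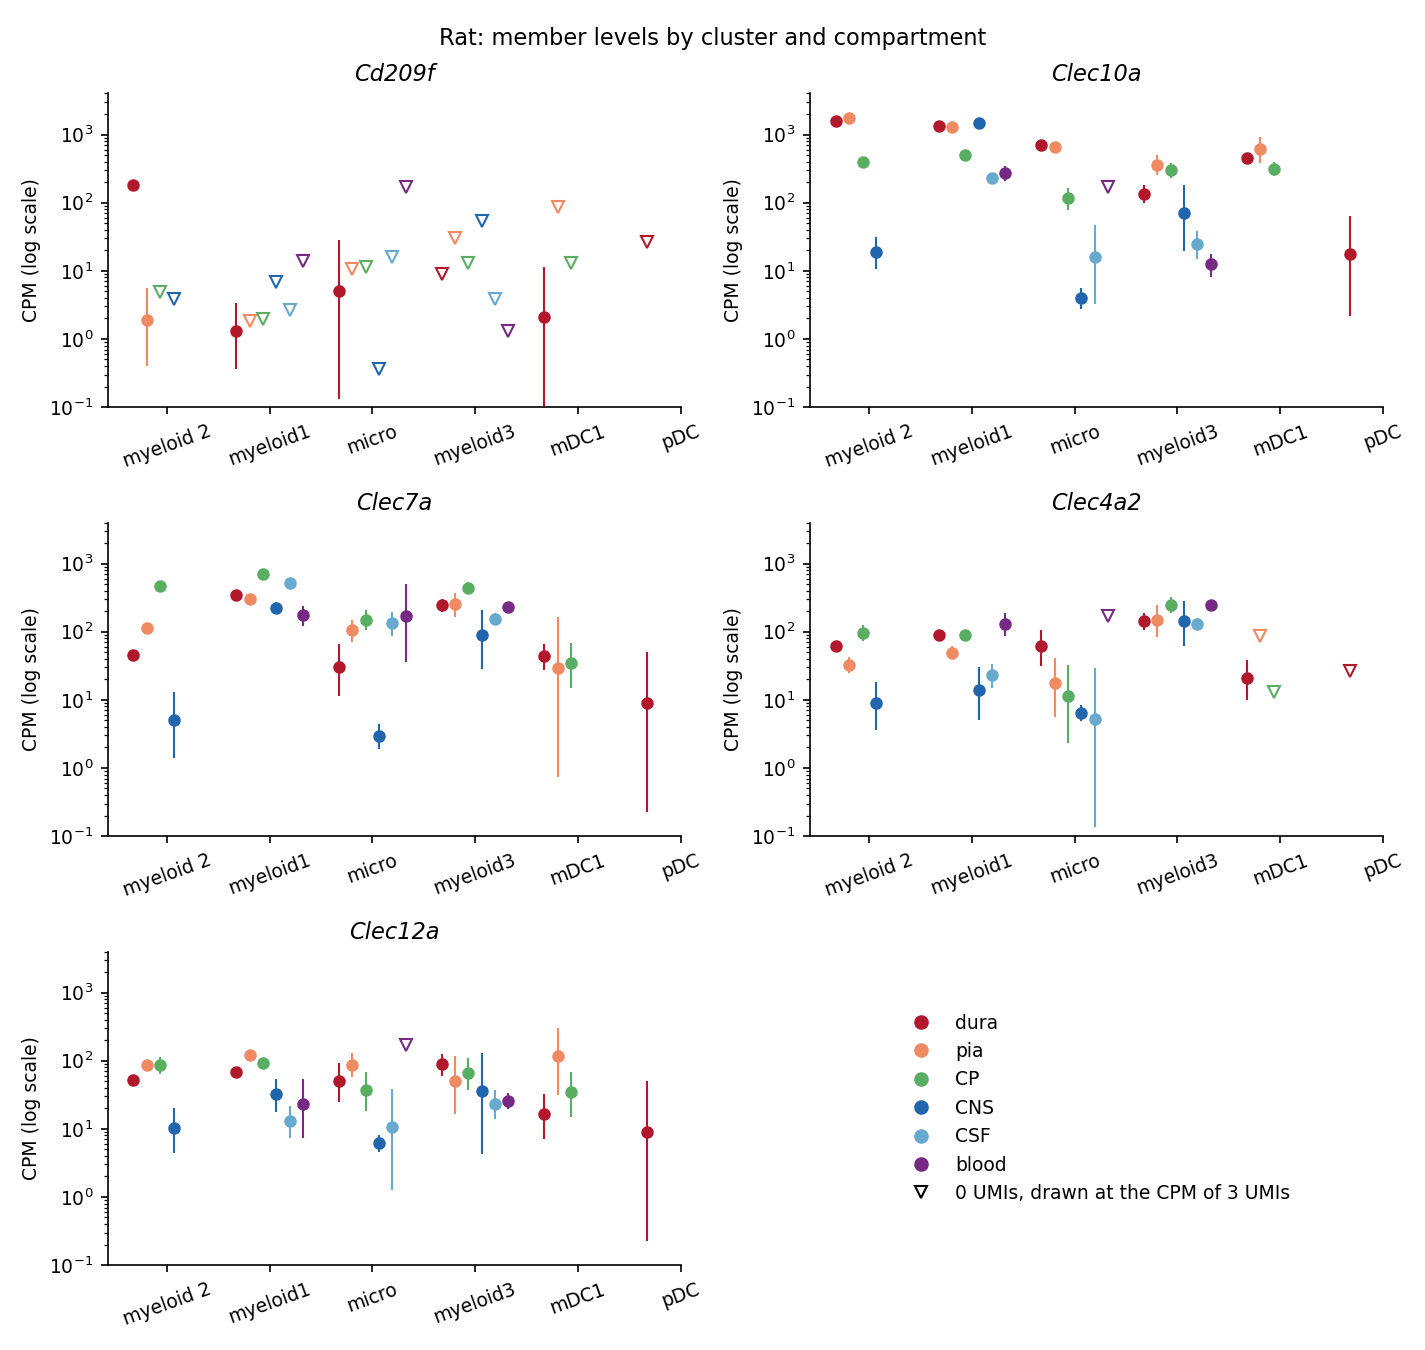
Levels of Cd209f, Clec10a, Clec7a, Clec4a2 and Clec12a (CPM, log axis) in rat myeloid and dendritic clusters with at least 20 cells, by compartment; bars are exact 95% Poisson intervals and open triangles are libraries with 0 UMIs, drawn at the CPM of 3 UMIs. Cd209f stands at 179 CPM in dural myeloid 2 and at 5.11 or below elsewhere, whereas Clec10a is within a narrow range in dura and pia and at 4.04 CPM in the micro cluster of the CNS.

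Cd209fl1 had the same distribution at a lower level. It had 160 UMIs in dural myeloid 2 (63.5 CPM, in 55 cells) and 1 in pial myeloid 2 (0.643 CPM), a 98.8-fold ratio with an interval of 17.5 to 3926. Outside that cluster it had 2 UMIs in dural myeloid1 and 1 each in dural Bc1, Bc2 and NK. Both genes were detected in 49 cells, Cd209f alone in 53, Cd209fl1 alone in 6 and neither in 925. Of the 34 cells with 4 or more Cd209f UMIs 24 also held Cd209fl1, against 9 of the 29 cells with 1. Reads of such close copies can be assigned to either gene or discarded, so the split between them is uncertain.

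The 102 dural myeloid 2 cells with Cd209f were compared with the 931 without it, a split made after the values were seen. The genes of class II antigen presentation were lower in the Cd209f cells. Cd74, which chaperones class II molecules, had 1298 CPM in the Cd209f cells and 7613 in the others, a 5.86-fold difference (5.29 to 6.52). RT1-Da, a class II alpha chain, had 561 and 4492 CPM, an 8.01-fold difference (6.85 to 9.44). RT1-Db1, RT1-Ba and RT1-Bb had log2 ratios of -2.46, -2.99 and -2.92. All 5 class II genes with at least 20 UMIs were at least 2-fold lower, with a median log2 ratio of -2.92 beside -0.06 over all genes. The share of all genes past 2-fold was not computed for this split. The Cd209f cells had the higher median depth, 2725 against 2299 UMIs. After thinning to 500 UMIs Cd74 was present in 20.8% of the cells that kept a Cd209f UMI, against 60.8% of the others. Those others include cells of the 102 that lost their Cd209f UMIs in thinning. Cd74 was also found in dural T cells at 947 CPM.

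Border macrophage markers were at least as high in the Cd209f cells. Lyve1, a hyaluronan receptor, was at 862 against 367 CPM (2.35-fold higher, 2.03 to 2.71). Mrc1, the mannose receptor, was at 1877 against 1532 CPM and Cd163, the haemoglobin scavenger receptor, at 905 against 725, ratios of 1.23 and 1.25. Pf4 was at 4537 against 4480 CPM, a ratio of 1.01 (0.955 to 1.07). Clec10a was at 1646 against 1588 CPM, 1.04-fold with an interval that spans 1. Clec7a was lower, at 21.3 against 48.3 CPM, and so was Clec12a, at 14.2 against 57.2 CPM from 4 UMIs. For Clec4a2 the ratio of 0.661 had an interval of 0.334 to 1.19. After Cd209fl1 (543 against 3.13 CPM) the 4 genes with the largest excess were Crispld1 (142 against 15.6 CPM), Fcrla, Rgcc and Hspb1. The 8 markers of leptomeningeal, choroid and neural cells summed to 170 CPM in the Cd209f cells and 172 in the rest. With at least 2 Cd209f UMIs as the criterion 73 cells remained, and all 5 class II genes were again at least 2-fold lower, with a median log2 ratio of -2.82. Clec7a then had a log2 ratio of -0.71, short of 2-fold, with an interval of the fold from 0.220 to 1.38, and Clec12a one of -2.54 from 2 UMIs.

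**Figure D2:**
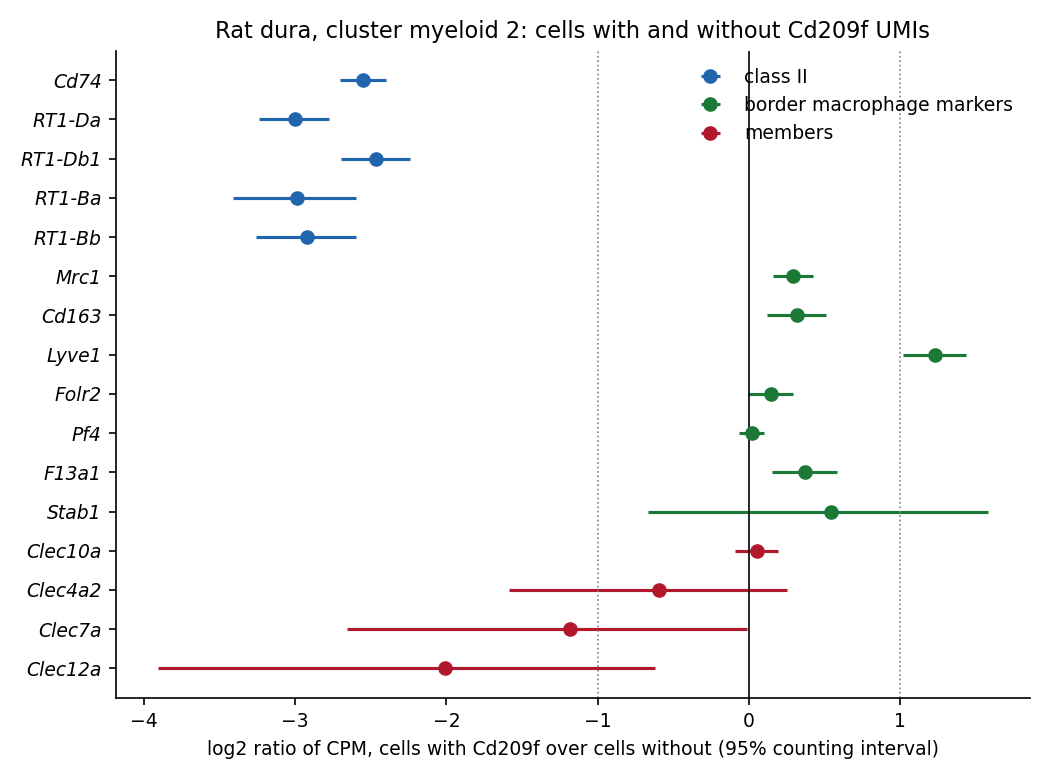
Log2 ratio of CPM between the 102 dural myeloid 2 cells with a Cd209f UMI and the 931 without, with 95% counting intervals; dotted lines mark 2-fold. The 5 class II genes lie between -3.00 and -2.46, Lyve1 lies at 1.23 and Clec10a near 0.

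Rat Cd209a, whose mouse counterpart marks dendritic cells, was close to absent from the annotated cells. It had 6 UMIs in all, 4 in pial, 1 in dural and 1 in CNS myeloid1 cells, and 0 in every mDC1 cell. The rat annotation has no cluster named mDC2, the dendritic cell cluster that held most of the mouse Cd209a UMIs. The low rat count is thus not a comparison of like dendritic cells between the species. Rat Cd209d had 18 UMIs. Of these, 8 were in 4 of the 48 dural pDC cells (71.5 CPM, 30.9 to 141) and 8 in 1 of the 16 CP pDC cells. The other 2 were in dural NK and myeloid1 cells. Too few UMIs were present for a comparison of Cd209a or Cd209d between compartments.

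Clec10a was high in the macrophage clusters of dura and pia. In myeloid 2 it stood at 1594 CPM in dura, 1769 in pia, 397 in CP and 18.99 in CNS (15 UMIs). The dural and pial levels lay within 1.11-fold of each other, and after thinning 53.2% and 54.6% of cells were positive. Dura exceeded CP 4.01-fold (3.52 to 4.59) and CNS 83.9-fold (50.8 to 150). In myeloid1 it was at 1493 CPM in CNS, 1319 in dura, 1302 in pia, 496 in CP, 269 in blood and 232 in CSF. There the dural and pial intervals overlapped, as did those of blood and CSF. The CNS value rests on 82 cells. In the micro cluster it was at 700 CPM in dura, 666 in pia, 116 in CP, 15.9 in CSF (3 UMIs) and 4.04 in the 2974 CNS cells. Those dural and pial cells also had 2865 and 3126 CPM of border macrophage markers, against 223 in CNS, and the part of that RNA in the result was not tested. Clec10a in T cells was 38.7 CPM in dura and 69.0 in pia and 0 UMIs in CNS. Its share of positive cells, 92.5% in dural and 74.7% in pial myeloid 2, compares with 3.97% and 5.32% of the T cells.

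Clec7a showed another order, with CP at the top. In myeloid 2 it was at 471 CPM in CP, 114 in pia, 45.3 in dura and 5.06 in CNS (4 UMIs), and no 2 of the 4 intervals overlapped. Dura was 10.4-fold below CP (8.35 to 13.1). The same CP library held 5806 CPM of leptomeningeal, choroid and neural markers in that cluster, against 172 in dura, and their part in the result was not tested. In myeloid1 the levels were 709 CPM in CP, 521 in CSF, 340 in dura, 306 in pia, 224 in CNS and 174 in blood. The dural and pial values differed 1.11-fold with an interval from 0.996 to 1.24. In myeloid3, the cluster that held most blood myeloid cells, CP was again highest at 439 CPM and the CNS lowest at 88.7, with dura, pia and blood at 246, 251 and 227 and CSF at 155. In the micro cluster Clec7a was at 150 CPM in CP, 133 in CSF, 105 in pia, 30.6 in dura (6 UMIs) and 2.94 in CNS. T cells had between 0 and 21.7 CPM.

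Clec4a2 reached its highest levels in myeloid3, at 249 CPM in blood, 246 in CP, 151 in pia, 142 in dura, 142 in CNS and 130 in CSF. In myeloid 2 it was at 96.9 CPM in CP, 61.9 in dura, 32.8 in pia and 8.86 in CNS. Dura exceeded pia 1.89-fold (1.37 to 2.64) in that cluster and 1.83-fold (1.43 to 2.38) in myeloid1, where the levels were 90.3 and 49.3 CPM. Clec12a went the other way between the meninges. It was at 52.4 CPM in dural and 86.2 in pial myeloid 2, 1.64-fold lower in dura (1.28 to 2.11), and at 69.2 and 122 in myeloid1, 1.77-fold lower (1.45 to 2.15). The intervals of both genes exclude 1 in both clusters, and none of the 4 ratios reached 2-fold.

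Counted with a threshold of 2-fold among genes with at least 20 UMIs over both sides, 2 of 5 measured members differed between dural and pial myeloid 2, beside 12.8% of 7554 genes (6.33% higher and 6.46% lower). They were Cd209f, which the choice of members used, and Clec7a, which was lower in dura. Between dura and CP 3 of 5 differed, with Cd209f and Clec10a higher and Clec7a lower, beside 22.9% of genes (14.9% higher and 7.93% lower). Between dura and CNS all 5 were higher in dura, beside 36.7% of genes in either direction and 15.2% higher. In that last comparison the 7 border macrophage markers and the 5 measured class II genes were also all at least 2-fold higher in dura and 6 of 6 measured microglia markers lower, and their part in the result was not tested. In myeloid1 the counts were 0 of 4 between dura and pia (10% of genes, with 5.79% higher and 4.24% lower) and 2 of 4 between dura and CP (17%, with 12.4% higher and 4.62% lower), Clec10a higher and Clec7a lower in dura. In myeloid3 none of 4 differed between CSF and blood (23.7%, with 8.39% higher and 15.3% lower), with Clec10a at 1.998-fold, just short of the threshold, from 19 and 28 UMIs. In the micro cluster 4 of 4 were higher in pia than in CNS (31.1% of genes in either direction, 13.8% higher) and 3 of 4 in CP than in CNS (34.1% and 12%). Clec4a2 in pia rests on 5 UMIs, with an interval of the ratio from 0.841 to 6.70. All 5 measured class II genes were at least 2-fold higher and 6 of 7 microglia markers lower in both. Border macrophage markers were higher for 6 of 6 in pia and 3 of 4 in CP, and Ttr, a choroid epithelial gene, was at 2544 CPM in CP and 0.613 in CNS, and the part of these in the result was not tested. The 5 dural comparisons share the dura library, and the micro comparisons the CNS library.

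Other C-type lectins were followed as lists. Between dural and pial myeloid 2, 6.33% of all genes were at least 2-fold higher in dura and 6.46% lower. In myeloid 2, dura against pia, none of the 3 listed relatives of the Cd209 members that the rat matrix names reached 20 UMIs. Cd209fl1, described above, was not on that list. Of 5 measured relatives of Dectin-2, Mincle and DCIR, 2 were lower in dura, Clec4e (Mincle, a receptor for mycobacterial glycolipid) at 3.18 against 10.9 CPM and Clec4d at 3.57 against 10.3. Clec4a1 was at 554 against 417 CPM and Clec4a at 156 against 113. The 1 measured relative of the Dectin-1 cluster, the oxidised lipoprotein receptor Olr1, was at 8.34 against 24.4 CPM. Of 6 other lectins, Colec12, a scavenger collectin, was higher in dura at 409 against 199 CPM and Clec5a, which signals through Dap12, lower at 13.5 against 58.5. Among 20 measured carriers of lectin receptor signals 1 was higher and 0 lower, with a median log2 ratio of 0.06 beside 0.09 over all genes. Among 6 genes known to be induced by Dectin-1 and its relatives, Egr2 was higher in dura (221 against 94.5 CPM) and Il23a lower (6 against 18 UMIs).

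Against CP the dural myeloid 2 cells had less Olr1 (8.34 against 223 CPM) and Clec5a (13.5 against 37.8 CPM), and more Mrc1 (1570 against 264), Colec12 (409 against 34.5) and Clec4a (156 against 31.2). Against CNS they had more Mrc1 (1570 against 8.86 CPM), Clec4a1 (554 against 186) and Clec4a (156 against 35.5), and less Olr1 (8.34 against 68.4). Colec12 had 1030 UMIs in dura and 1 in CNS. Signal carriers were about evenly split, 2 higher and 2 lower of 20 against CP and 3 higher and 4 lower of 20 against CNS. Over all genes 14.9% were higher and 7.93% lower against CP, and 15.2% higher and 21.5% lower against CNS.

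The genes most like each member were sought by Pearson correlation of log2(CPM + 1) over 42 rat cluster-by-library units of at least 50 cells and 9890 genes. These are descriptions, since units of a library share its depth and stray RNA. Cd209f was closest to LOC100363064 (r = 0.90), then Col1a1 (0.72) and Serpinf1 (0.70), genes of connective tissue. Cd209f was at 179 CPM in dural myeloid 2, whose level the choice of members used, and at most 10.1 CPM (dural NK) in any other unit. Its r values thus mostly restate that dural level. Clec10a was closest to Mrc1 (0.91), Fxyd2 (0.90) and Cfd (0.87). Clec7a was closest to the lysozyme gene Lyz2 (0.91), Csf2ra (0.87) and Ccl6 (0.84). Clec4a2 was closest to Igsf6 (0.91), Il1rn (0.89) and AABR07035722.1 (0.89), and Clec12a to Cd68 (0.89), Il13ra1 (0.88) and Hlx (0.86).

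In the mouse (build mm10) the 3 Cd209 members lie on the minus strand of chromosome 8, Cd209a at chr8:3743397-3748984, Cd209d at chr8:3871824-3878555 and Cd209f at chr8:4102787-4105835. Clec10a lies at chr11:70156197-70170834, next to its close relative Mgl2, and Clec4a2 and Clec12a at chr6:123106428-123143999 and chr6:129342691-129365303, all on the plus strand. The libraries were made with a 3' kit, per the labels' protocols. In the last 500 bases of the transcripts no 50-base word of Cd209a, Cd209d, Cd209f or Clec12a occurred in another gene. For Clec10a 15.6% of words also occurred in Mgl2, and for Clec4a2 8.96% in Clec4a4 or Clec4b1, so those counts may be split or discarded.

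Neutrophil RNA was found in every EAE T cell. S100a8, a neutrophil gene, was present in 100% of those cells at 2355 CPM, against 58.7 CPM in naive T cells. The 8 neutrophil markers summed to 3124 CPM in EAE and 117 in naive mDC2 cells, and to 6707 and 146 in myeloid1. Its part in the ratios below was not tested. The members in T cells of the EAE and naive libraries were at 0.571 and 5.09 CPM for Cd209a, 0.951 and 0.485 for Cd209d, 3.80 and 0.242 for Cd209f, 2.28 and 4.12 for Clec10a, 12.7 and 1.94 for Clec4a2 and 20.7 and 2.18 for Clec12a.

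Cd209a was concentrated in mDC2, a dendritic cell cluster, and was lower there in EAE. It was at 1888 CPM in the 176 naive cells (3541 UMIs) and 298 CPM in the 563 EAE cells (2331 UMIs), 6.33-fold lower (6.01 to 6.67). It was also lower, with an interval that excludes 1, in 4 other myeloid or dendritic clusters. In myeloid1 it was at 93.9 CPM naive and 9.17 in EAE (10.2-fold, 8.01 to 13.1), in mDC1 at 55.7 and 17.7 (3.15-fold, 2.12 to 4.72), and in pDC at 179 and 91.5 (1.95-fold, 1.42 to 2.67). In myeloid2 it was at 27.5 and 2.40 CPM, from 12 and 15 UMIs. In granulo1 it was at 7.67 and 2.16 CPM, with an interval that spans 1, and in granulo2 at 17.8 and 0.438, from 3 and 1 UMIs. T cells, which should lack it, were lower in EAE too, at the levels given above. In ILC it was higher in EAE, at 20.8 against 4.73 CPM, with all 8 EAE UMIs in 1 cell. In BcProg (6.17 against 2.15 CPM) and NK (4.02 against 3.76) it was also higher, from few UMIs. In myeloid3 it had 0 UMIs in 23 naive and 19 in 281 EAE cells. In mDC2, myeloid1, mDC1, pDC and myeloid2 the interval lies on the same side of 1, and all 5 ratios share the 2 libraries.

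In mDC2 both the share of cells with Cd209a and the counts per cell were lower in EAE. In the naive library 15 of 176 cells (8.52%) had no Cd209a UMI and 74 (42.0%) had 20 or more. In the EAE library 286 of 563 (50.8%) had none and 34 (6.04%) had 20 or more. The median depths were 11142.5 and 13539 UMIs per cell. After thinning to 1000 UMIs 68.9% of naive and 19.1% of EAE cells were positive, beside 0.521% and 0.0491% of T cells. T cell medians were 4006.5 and 7332 UMIs.

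**Figure D3:**
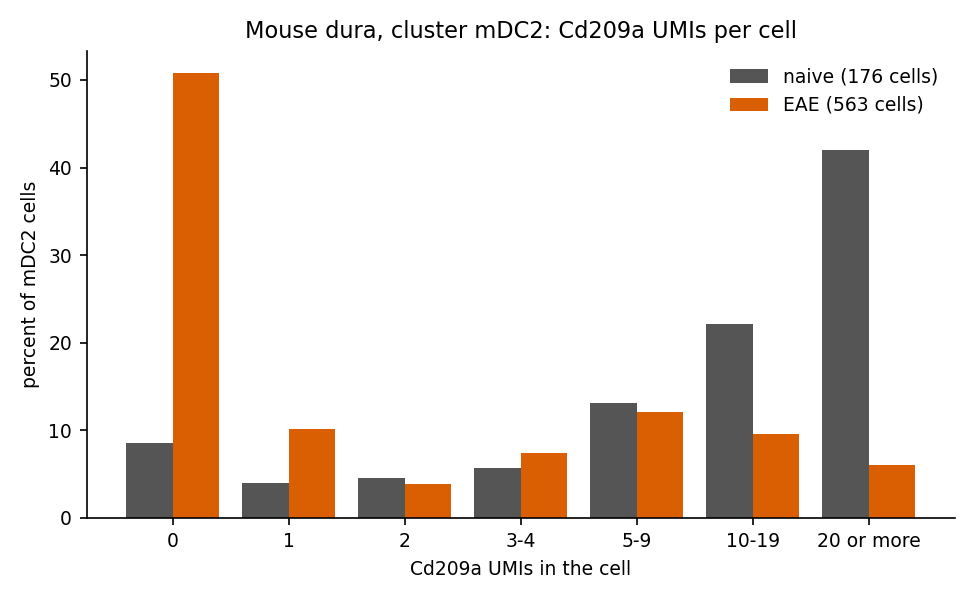
Share of mDC2 cells (percent) by the number of Cd209a UMIs in the cell, for 176 naive and 563 EAE cells of mouse dura. The largest class holds 42.0% of naive cells at 20 or more UMIs and 50.8% of EAE cells at 0.

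The EAE mDC2 cells with Cd209a (277) were set beside those without (286), again a split made after the values were seen. Their median depths were 13431 and 13588.5 UMIs. Cd209d was nearly restricted to the Cd209a cells, at 28.2 against 0.253 CPM (109 UMIs against 1). Clec10a was at 511 against 161 CPM and Mgl2, its close relative, at 618 against 238. Clec4a2 was at 94.9 against 57.0 CPM and Clec12a at 82.5 against 69.9. Ccr7, the receptor that guides dendritic cells to lymph nodes, was lower in the Cd209a cells, at 309 against 533 CPM. The thinned shares of cells with Ccr7 were 19.7% and 20.1%, but there the cells were split by the Cd209a left after thinning. That split differs from the 277 and 286 cells, so the shares and the CPM cannot be set against each other. Class II genes had a median log2 ratio of 0.10, beside -0.06 over all genes. In the naive library 161 cells had Cd209a and 15 did not, at medians of 11200 and 8530 UMIs. There the cytokine gene Il12b was at 30.1 against 1422 CPM and Tnf at 72.7 against 1132 CPM, both lower in the Cd209a cells. Both were picked from the genes with the largest deficit. Of 9 measured genes known to be induced by Dectin-1 and its relatives, they were the only 2 at least 2-fold lower, and 1 was higher. The median log2 ratio of those 9 was 0.08, beside 0.01 over all genes, so the list as a whole was not lower.

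Cd209d was found in mDC2 and in pDC, the plasmacytoid dendritic cells, which make type I interferon. In mDC2 it was at 107 CPM naive and 14.1 in EAE, 7.58-fold lower (5.98 to 9.65). In pDC it was at 226 and 230 CPM, a ratio of 1.02 with an interval of 0.793 to 1.32, in 23 of 48 naive and 62 of 126 EAE cells. In myeloid1 it was at 13.5 CPM naive and 2.97 in EAE, 4.54-fold lower (2.59 to 7.82). The difference between the clusters was not tested, but the intervals of mDC2 and pDC do not overlap. In both species Cd209d was thus found in cells of the pDC cluster.

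Cd209f was a rare transcript of myeloid1 in the mouse. It had 56 UMIs in 11 of 227 naive cells (31.5 CPM) and 237 UMIs in 36 of 1000 EAE cells (19.6 CPM), a log2 ratio of -0.69 (1.61-fold lower in EAE, 1.18 to 2.16). With only cells as deep as the shallowest EAE cell, which kept 157 of the 227 naive cells, the log2 ratio was 0.45, and with equal weight per cell -2.30, so no direction is drawn. Single cells held up to 15 and 38 UMIs, whereas in T cells no cell held more than 3. The 36 EAE cells were rich in related genes, a comparison again chosen after the values were seen. Cd209g was at 122 against 0.430 CPM, Cd209b at 71.6 against 0.172, Cd209d at 48.4 against 1.12, Cd209a at 37.9 against 7.995 and Clec10a at 221 against 63.1. All 8 border macrophage markers were at least 2-fold higher, among them Lyve1 (118 against 3.61 CPM), Cd163 (261 against 18.7), Folr2 (168 against 12.9) and Mrc1 (1006 against 197). Their median log2 ratio was 2.91, beside 0 over all genes. The share of all genes past 2-fold was not computed for the split into these 36 cells and the other 964. The 8 neutrophil markers summed to 20041 CPM in these cells and 6162 in the rest (4 of 8 at least 2-fold higher), and the monocyte markers to 1759 and 3459 (4 of 7 lower), and their part in the result was not tested. Class II genes had a median log2 ratio of -0.25, with 0 of 7 past 2-fold, against 5 of 5 in the rat dural cells with Cd209f. In the 11 naive cells Cd209g was at 533 against 0.578 CPM, Pf4 at 6111 against 748, Mrc1 at 554 against 170 and Cbr2 at 718 against 39.3, while Lyve1 had 0 UMIs. Those 11 cells were shallower, with a median of 2213 UMIs against 8321.5. They also had more RNA of some other cell types. The B cell markers summed to 390 against 22.6 CPM (1 of 1 measured at least 2-fold higher). The leptomeningeal, choroid and neural markers summed to 431 against 89.6 CPM (2 of 3 higher). Of the T cell and neutrophil markers 0 of 3 and 0 of 4 were past 2-fold. The part of this RNA in the result was not tested.

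**Figure D4:**
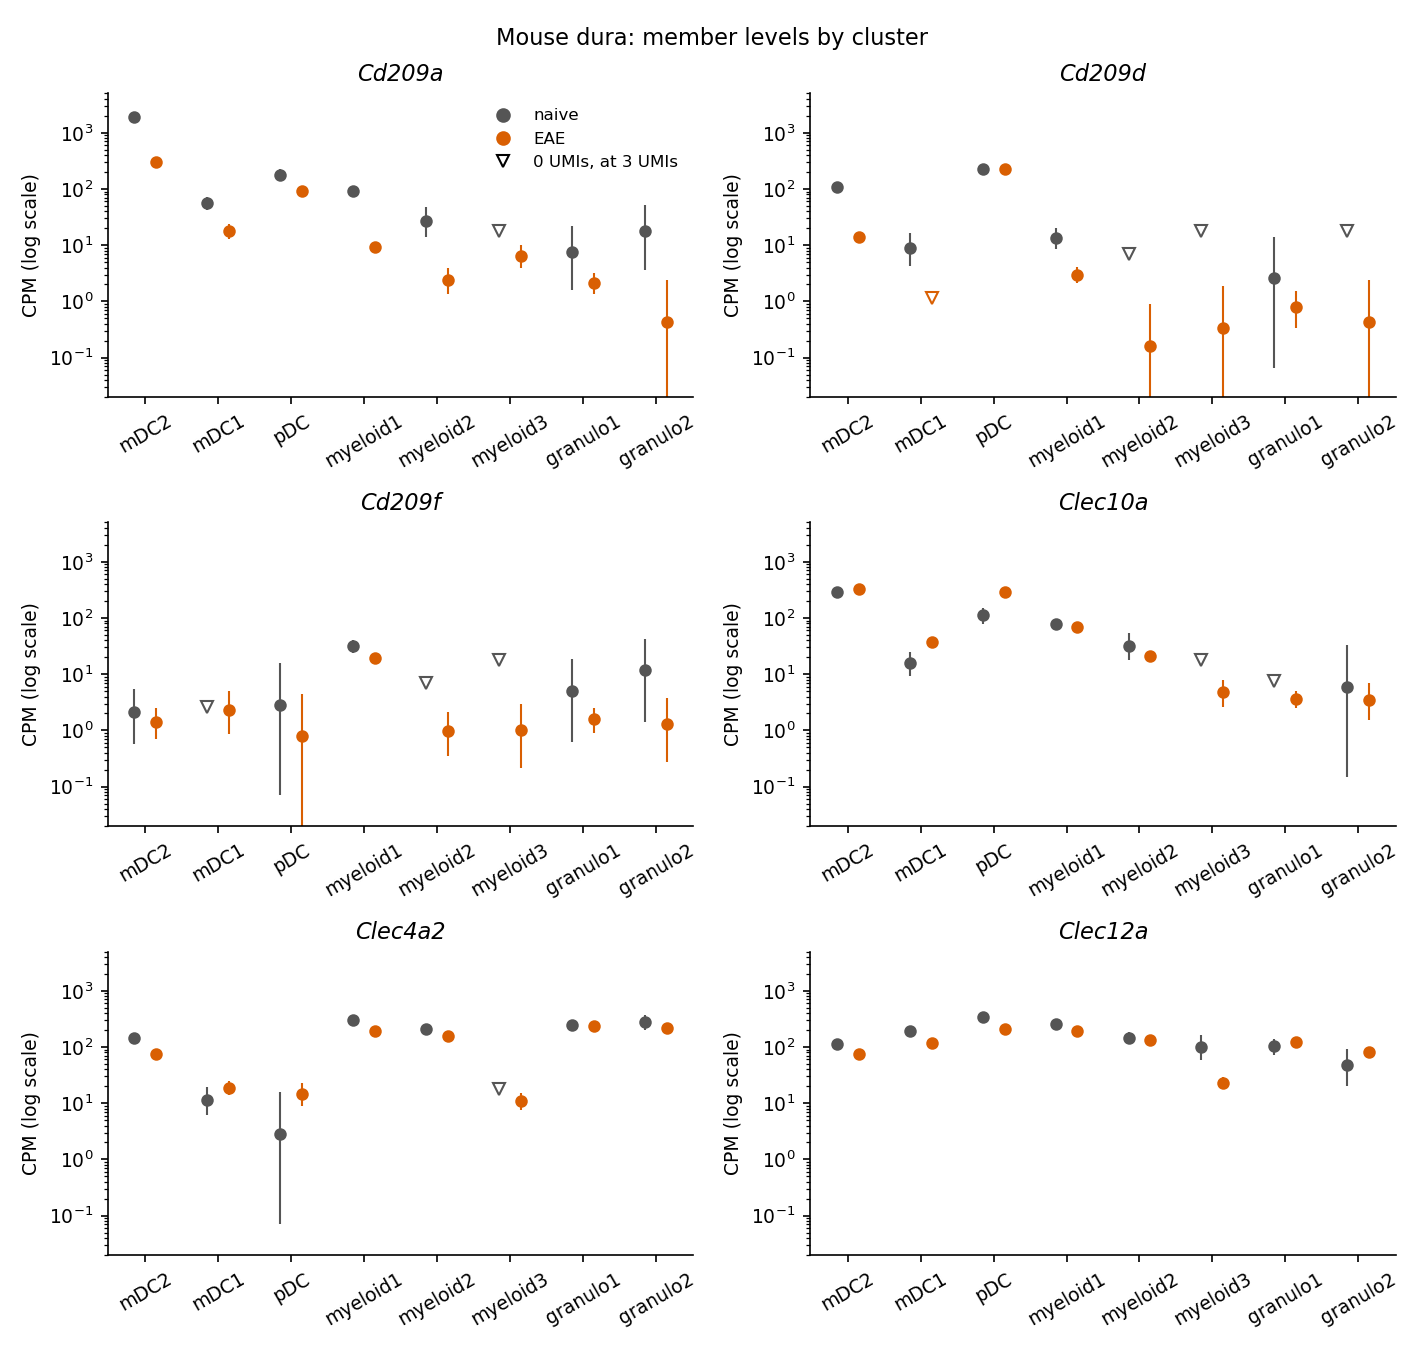
Levels of the 6 members (CPM, log axis) in myeloid and dendritic clusters of mouse dura, naive and EAE, with exact 95% Poisson intervals; open triangles are libraries with 0 UMIs, drawn at the CPM of 3 UMIs. Cd209a is highest in mDC2 (1888 CPM naive, 298 EAE) and Cd209d in pDC (226 and 230), and Clec4a2 and Clec12a are spread over most clusters.

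In mDC2 and myeloid1 Clec10a had small ratios where Cd209a had large ones. In myeloid2 the Clec10a ratio was 0.654 (0.376 to 1.23), from 14 naive and 131 EAE UMIs. In mDC2 it was at 289 CPM naive and 334 in EAE, a ratio of 1.16 (1.05 to 1.27) whose direction flips under another scaling given below, and in myeloid1 at 77.6 and 69.3, a ratio of 0.893 whose interval spans 1. It was higher in EAE in pDC, at 112 against 295 CPM (2.64-fold, 1.90 to 3.76), and in mDC1, at 15.9 against 36.9 (2.32-fold, 1.39 to 4.07), which became a log2 ratio of 0.90 under the other scaling. Of the 96 EAE UMIs in mDC1, 37 lay in 1 cell. Clec4a2 was lower in EAE in mDC2 (142 against 75.7 CPM, 1.88-fold), myeloid1 (296 against 195, 1.52-fold) and myeloid2 (211 against 154, 1.37-fold). In granulo1 it was at 248 and 238 CPM, with an interval of the ratio from 0.784 to 1.19, but the other scaling took the log2 ratio from -0.06 to 0.66. In pDC it had 1 naive and 19 EAE UMIs, 5.33-fold with an interval of 0.847 to 221, and the EAE level of 14.9 CPM was close to the 12.7 CPM of EAE T cells. Clec12a was lower in EAE in mDC2 (111 against 76.1 CPM), myeloid1 (255 against 195), mDC1 (192 against 119) and pDC (335 against 210), by 1.31-fold to 1.62-fold, and its intervals in myeloid2 and granulo1 span 1. The other scaling took Clec12a in granulo1 from 0.28 to 1.001 (log2).

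With the same 2-fold threshold, 2 of 5 measured members differed in mDC2, Cd209a and Cd209d, both lower in EAE, beside 35.3% of genes in either direction, 30% higher and 5.32% lower. In myeloid1 the same 2 of 6 were lower, beside 25.4% and 4.59%. In myeloid2 Cd209a alone of 4 was lower (21.1% of genes in either direction, 8.34% lower). In pDC 2 of 5 were higher, Clec10a and Clec4a2 (17.8%, with 11.2% higher and 6.59% lower). The Clec4a2 call rests on 1 and 19 UMIs and turned from 2.41 to -1.83 (log2) once the T cell level was subtracted. In mDC1 Clec10a was higher and Cd209a lower of 4 (22.4%, with 19% higher and 3.37% lower), and in granulo1 1 of 4 was lower (33.1%, with 27.1% lower), Cd209a from 3 and 22 UMIs. The median log2 ratio of all genes was 0.55 in mDC2 and 0.40 in myeloid1, so a member at 0 on that scale lay below the middle of the genes. Rescaling by the trimmed mean of M values shifted log2 ratios by -0.40 in mDC2 and -0.27 in myeloid1. In mDC2 it took Clec10a from 0.21 to -0.19, so the direction of that gene depends on the scaling, and Clec4a2 from -0.91 to -1.31, which made 3 of 5 members at least 2-fold lower. In myeloid1 the count was 2 again. In mDC1 the shift was -0.31 and the count was again 2, but with Clec12a (-1.0038) in place of Clec10a (0.90). In granulo1 the shift was 0.72, the largest of all comparisons, and 2 of 4 members were called.

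**Figure D5:**
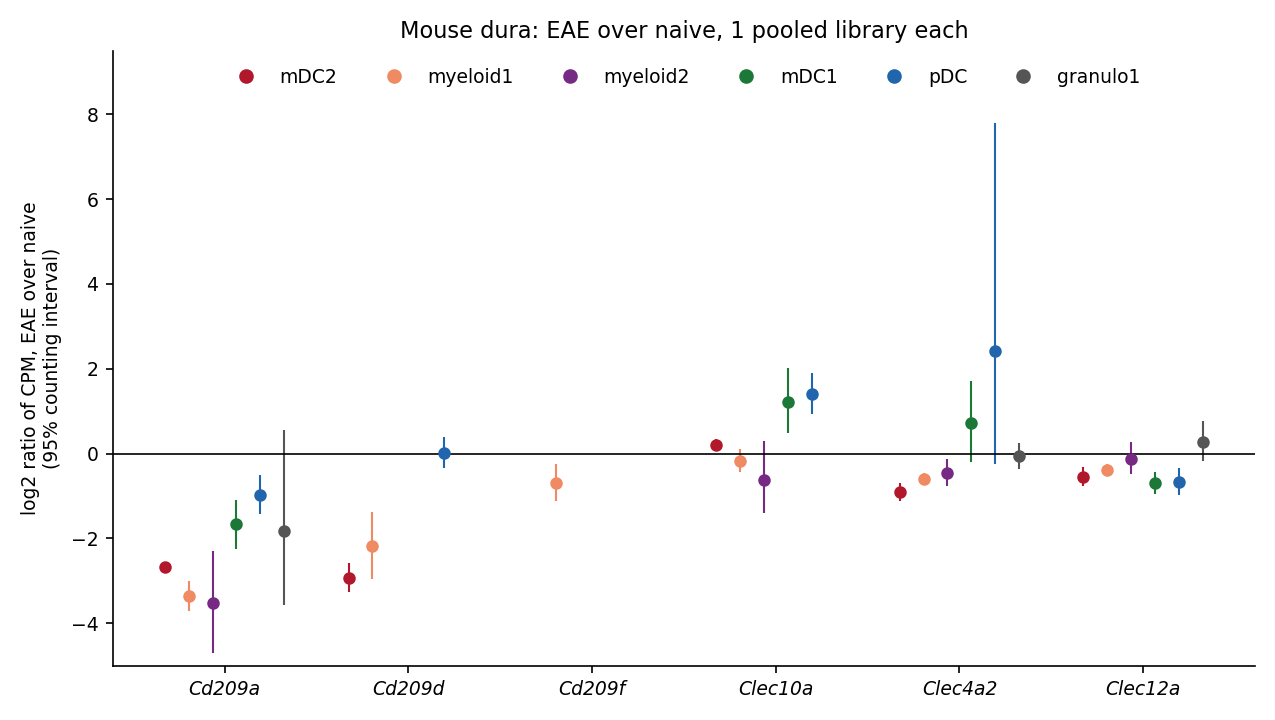
Log2 ratio of CPM, EAE over naive, for the members with at least 20 UMIs in 6 clusters of mouse dura, with 95% counting intervals. Cd209a is below 0 in all 6 clusters drawn, with the granulo1 interval spanning 0, whereas Cd209d is near 0 in pDC and Clec10a is above 0 in pDC and mDC1.

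Related lectins in mDC2 were counted by list, beside 30% of all genes at least 2-fold higher and 5.32% lower. Both measured other Cd209 genes were lower, Cd209b at 41.6 CPM naive and 0.512 in EAE and Cd209c at 10.1 and 2.56. Of 6 measured relatives of Dectin-2 and DCIR 2 were at least 2-fold lower, Clec4b1 (380 against 71.0 CPM) and Clec4d (58.1 against 21.8), and 0 higher. Olr1, of 5 measured relatives of the Dectin-1 cluster, was at 5.87 CPM naive and 2.05 in EAE. Of 8 other lectins 4 were lower, among them Mgl2 (1550 against 426 CPM), Mrc1 (113 against 30.8) and Cd302 (148 against 41.7), and 2 were higher, Clec5a (5.33 against 15.6 CPM) and Ly75 (2.13 against 4.99). Among 21 signal carriers 4 were higher and 0 lower, with a median log2 ratio of 0.44, below the median of all genes given above. Of 10 genes induced by Dectin-1 and its relatives 8 were lower, among them Il6 (70.4 against 1.15 CPM), Il10 (18.7 against 1.66) and Cxcl2 (1984 against 228).

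In myeloid1 the family member Cd209g was at 15.2 CPM naive and 5.204 in EAE. Langerin, encoded by Cd207, was at 21.9 and 0.909 CPM, Mgl2 at 935 and 163 and Clec4b1 at 284 and 65.2. Clec1b was the 1 lectin of the Dectin-1 cluster at least 2-fold higher, from 1 naive and 35 EAE UMIs. Of 9 induced genes 7 were lower, with Il6 at 15.2 against 0.578 CPM and Il12b at 30.9 against 4.63, and 2 were higher, Egr2 (15.8 against 33.9 CPM) and Egr3 (6.75 against 15.4). Over all genes in myeloid1 4.59% were at least 2-fold lower and 20.8% higher.

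Over 29 mouse cluster-by-library units and 10769 genes, Cd209a was most like Clec10a (r = 0.79), Tnfsf9 (0.78) and Mgl2 (0.77), and Cd209d like Ak8 (0.76), Clec10a (0.74) and Cd209a (0.72). Cd209f was most like Ms4a7 (0.77), Cbr2 (0.74) and Pla2g2d (0.73), and Clec10a like Kmo (0.83), Pip4k2a (0.83) and Pltp (0.81). Clec4a2 was most like the integrin gene Itgam (0.95), Clec4e (0.95) and Lyz2 (0.95), and Clec12a like Skap2 (0.91) and Gsn (0.91). As in the rat, these values describe units that share libraries.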

How the data were processed

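Single-cell RNA libraries of 6 rat compartments and 2 mouse dura groups were analysed, and the B cell receptor libraries were not used here. The deposited values are UMI counts per gene and barcode, which the authors made with Cell Ranger. The submitters' processing notes name its version 3.1.0 and the builds Rnor_6.0 and mm10, whereas the header of the rat matrix gives 3.0.2. Libraries and clusters were taken from the authors' deposited annotation of barcodes, and only barcodes with a cluster entered the comparisons. No further cell filter and no doublet caller were applied, and how doublets were treated before deposit is not given in the sources used here.

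Counts were summed per cluster and library and scaled to CPM. Ratios have exact conditional binomial intervals, levels exact Poisson intervals and shares exact Clopper-Pearson intervals, all at 95% and for counting error only. A side at 0 was set to a floor of 3 counts. A gene was called at 2-fold or more among genes with at least 20 UMIs over both sides, and levels are given for at least 20 cells. With 1 pooled library per group no test was possible. Shares were also computed after thinning to 500 UMIs per cell in rat and 1000 in mouse, leaving out shallower cells.

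All 7 members are named. A related gene is named where it had at least 20 UMIs and was among the 3 largest ratios of its list in either direction, and the 3 genes most like each member are named, except 1 that is not reported here. The members and lists were chosen with earlier results of these data known. The comparisons in pDC, mDC1, granulo1 and micro, the splits by Cd209f or Cd209a, the genes named from them and the Cd209fl1 copy were added after the data were seen. Alternatives were the scaling, the UMI minimum, the fold, equal weight per cell and subtraction of the T cell level. Others were a shared minimum depth and removal of cells with markers of other types. The shared minimum kept only cells at or above the higher of the 2 library minima and did not equalise depth. For rat myeloid 2, dura against pia, it kept 1033 of 1033 and 1458 of 1515 cells. The scripts were tested on simulated data. Python 3.11.15, numpy 2.4.6, pandas 2.3.3, scipy 1.17.1 and matplotlib 3.10.9 were used, and R 4.3.3 with edgeR 4.0.16 only for the trimmed-mean scaling.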

Additional observations from a re-analysis of the deposited data

Results flagged for a closer look

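More rat Cd209a lay outside the authors' clusters than in them. Dural barcodes without a cluster held 46 Cd209a UMIs, against 6 in all annotated rat cells, and this part of the data enters no comparison above. The 46 UMIs were in 26 of 241 such barcodes, and all 26 also held Cpa3, a mast cell protease gene. Those 26 had 86563 CPM of the 8 mast cell markers, a list added after the data were seen, against 1723 CPM in the other 215, with Tpsab1 at 32482 against 419 CPM. Their median depth was 1278 UMIs against 4189. In pia 3 Cd209a UMIs were in 2 of 279 such barcodes, both with Cpa3. The annotated mast cluster of the naive mouse library (234 cells) had 6 Cd209a UMIs, 10.2 CPM.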

How the results depend on the processing

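No paired analysis was possible because each group is 1 pooled library, and for the same reason no library could be left out. Of 494 single-gene ratios under an alternative, 462 stayed within the counting interval of the reported ratio, 31 left it and 1 past 2-fold reversed. That was Clec4a2 in mouse pDC, which went from 2.41 to -1.83 (log2) once the T cell level was subtracted. The alternatives for the UMI minimum and the fold leave a single ratio unchanged. Their entries are among the 462 by construction and say nothing about how stable a ratio is. Counting ratios under 2-fold, 12 changed sign. Among them were Clec10a in mDC2 and Clec4a2 in granulo1 with trimmed-mean scaling and Cd209f in mouse myeloid1 with the shared minimum depth.

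Counts of members past 2-fold that moved by more than 1.5 times were these. With a 3-fold threshold, myeloid 2 dura against pia went from 2 to 1, myeloid1 dura against CP from 2 to 0, and mouse pDC and mDC1 each from 2 to 1. With equal weight per cell, myeloid1 dura against CP went from 2 to 1 and granulo1 from 1 to 2. With no UMI minimum, myeloid1 dura against pia went from 0 to 1 and granulo1 from 1 to 3. With a minimum of 50 UMIs, mouse myeloid2 and granulo1 each went from 1 to 0 and pDC from 2 to 1. Without cells that held T or B markers pDC also went from 2 to 1. Myeloid3 CSF against blood went from 0 to 1 with trimmed-mean scaling and with T cell levels subtracted. It also did so with the shared minimum depth and without cells holding T, B or neutrophil markers. Granulo1 went to 2 with trimmed-mean scaling and with T cell levels subtracted. The cause was not tested. Smaller moves, between 2 and 3 or 4 and 3 members, occurred in myeloid 2 dura against pia, in micro pia against CNS and in mouse mDC2, myeloid1, pDC and mDC1.

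Thinning to 1000 UMIs in rat and 2000 in mouse took the positive shares of dural myeloid 2 cells from 4.91% to 6.998% for Cd209f and from 53.2% to 75.4% for Clec10a. The Cd209a share in mDC2 went from 68.9% to 82.6% naive and from 19.1% to 28.1% in EAE, and the Cd209d share in EAE pDC from 16.1% to 25.0%. Removal of cells with T, B or neutrophil markers was not run in 5 mouse clusters, because 0 EAE cells were left. Counts were too few to compare for Cd209a and Cd209d in annotated rat cells and for Cd209f outside myeloid1 in mouse.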

Other observations

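Barcodes without a cluster in the EAE library held 212 Cd209d UMIs in 40 of 421 barcodes, beside 477 UMIs in all annotated EAE cells. Of those 40 barcodes 36 held Siglech, a gene of plasmacytoid dendritic cells. They had Cd209a at 134 against 3.35 CPM in the other 381, Clec10a at 305 against 21.7 and Ptgds at 1991 against 1.08. In the EAE NK cluster 17 Cd209f UMIs lay in 2 of 154 cells.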
